A study of Mus musculus with 7 samples.

Results

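The genes described here encode the TGF-beta and BMP signalling system, and their transcripts were measured in livers of mice that lack the microRNA miR-122 and of wild-type mice. The 45 genes were a list of ligands, activin subunits, receptors, Smad proteins, inhibitors and target genes, and a gene counted as measured where a probe set carried its symbol alone. Of the 45 genes, 44 were measured, among 18193 named genes in all. Gdf15 was not analysed here. All 7 animals had the mixed B6/129 background and were 2 months old, and each gave total RNA of frozen liver to 1 Affymetrix array. There were 3 wild-type animals, WT-27, WT-103, WT-104, and 4 mir-122 knockouts, KO-03, KO-90, KO-91, KO-94, and values are given in that order unless an array is named. The microRNA itself was not analysed here, so the arrays give no check of the deletion. The labels name no allele, Cre driver, sex or litter, so the p-values measure the spread between these animals.

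Ligands of this family bind pairs of serine/threonine kinase receptors, which phosphorylate receptor Smads that enter the nucleus with the shared Smad4. TGF-beta and activin act mainly through Smad2 and Smad3, and BMPs through Smad1, Smad5 and Smad9, while Smad6, Smad7, Bambi, the Smurf ubiquitin ligases and the corepressors Ski, Skil and Tgif1 hold the pathway back. In liver, TGF-beta is best known for driving hepatic stellate cells to make matrix, and BMP signals from sinusoidal endothelium for setting hepatocyte expression of the iron hormone hepcidin.

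The values are log2 expression values, and differences are knockout minus wild type on that scale. Array medians lay between 4.65 and 4.72. The highest of 27 bacterial control probe sets on each array, 4.71 to 5.23, served as a floor, and a value at or under it is called not above background. All 7 measured hepatocyte markers lay above the floor on every array, with albumin, Alb, at 14.60 ± 0.04 (SD, n = 3 wild types) and 14.63 ± 0.04 (SD, n = 4 knockouts). None of the 7 passed a limma adjusted p of 0.05. Tat differed by 0.90 and Cps1 by -0.08 (limma adjusted p = 0.0533 and 0.766), and the groups did not overlap for either. On the first principal component of all genes, which held 48.6% of the variance, KO-03 lay at -1.3, between the wild types at -32.3 to -20.1 and the other knockouts at 15.8 to 42.5. In a bulk liver sample, fewer cells of a type and less RNA per cell cannot be told apart.

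Of the 44 genes, 3 rose in knockout and 0 fell at a limma adjusted p under 0.05, where 2.58% of all genes were higher, 0.951% were lower and 3.53% were either. The 3 were the ligand Gdf10, the secreted matrix protein Tgfbi and the corepressor Tgif1, 1 each from the ligands, the target genes and the inhibitors. At an unadjusted limma p under 0.05, 14 of the 44 were higher and 0 lower, where 10.2% and 6.23% of all genes were. All 4 knockout arrays lay above all 3 wild-type arrays for 9 of the 44, beside 9.15% of all genes, and below them for 1, beside 6.62%. The median difference of the 44 was 0.10, and that of all genes 0.01. Whether these shares differ from those of all genes was not tested. Levels cleared the floor on all 7 arrays in 36 of the 44 genes and on none in Tgfb2, Bmpr1b, Acvrl1 and Smad9. The count of 3 became 0 without WT-103, 1 without WT-104 and 6 without KO-03. Over all genes, the 470 higher in knockout became 132, 243 and 892 in the same fits.

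**Figure D1:**
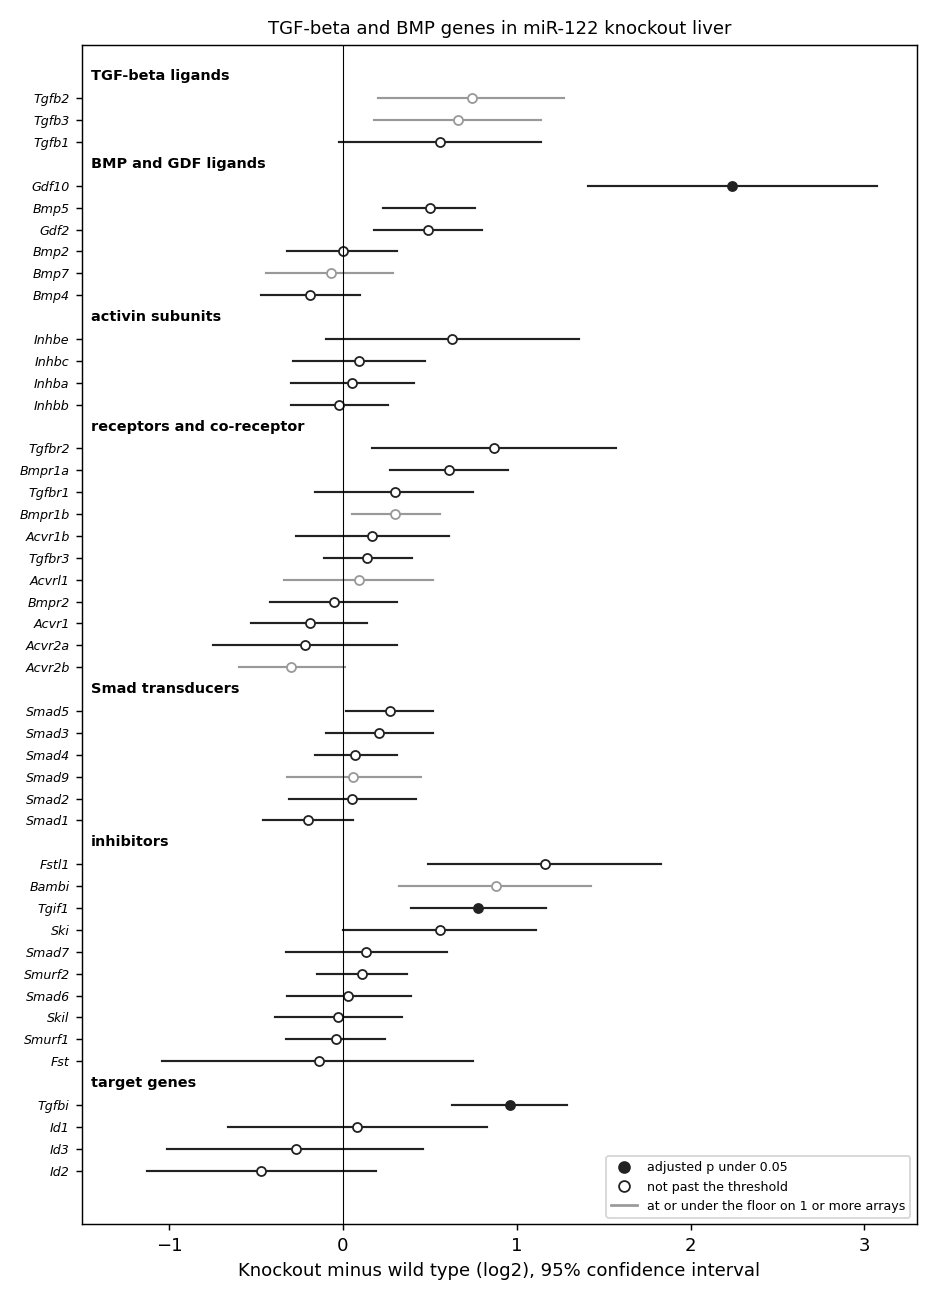
Knockout minus wild type (log2, horizontal axis) for each of the 44 measured genes, grouped by role, with bars for the 95% confidence interval from limma. Filled points passed an adjusted p of 0.05, and grey marks genes at or under the floor on 1 or more arrays. The 3 filled points are Gdf10 at 2.24, Tgfbi at 0.96 and Tgif1 at 0.78.

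Gdf10, a secreted ligand close to Bmp3 in sequence, had the largest difference of the 44. It measured 6.21, 5.87 and 6.18 in the wild types and 7.43, 8.47, 8.08 and 9.32 in the knockouts. Every knockout lay above every wild type, with KO-03 the lowest knockout and KO-94 the highest. The group means were 6.09 ± 0.19 (SD, n = 3) and 8.32 ± 0.79 (SD, n = 4), a 4.71-fold difference with a 95% confidence interval of 2.65 to 8.37 (limma adjusted p = 0.0149). The call was lost without WT-103 (limma adjusted p = 0.0804) and without WT-104 (0.0520), and the difference stayed between 1.90 and 2.53 with any 1 array left out.

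Tgfbi, a matrix protein named for its induction by TGF-beta, measured 8.33, 8.22 and 8.34 in the wild types and 9.0, 9.42, 9.10 and 9.52 in the knockouts. The groups did not overlap. Its means were 8.30 ± 0.06 (SD, n = 3) and 9.26 ± 0.25 (SD, n = 4), a 1.95-fold difference with an interval of 1.55 to 2.45 (limma adjusted p = 0.0104, and 0.0665 without WT-103). Another of its 4 probe sets differed by 1.21 and passed when p was adjusted over the whole array (limma adjusted p = 0.00917). The remaining 2 differed by 0.48 and 0.19 with overlapping groups and did not pass (limma adjusted p = 0.413 and 0.753). Of the 4, only the one at 1.21 is of a type designed against 1 gene, and the probe set of the main value, like the 2 that did not pass, is of a type that can bind several transcripts.

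Tgif1, a homeodomain protein that recruits corepressors to Smad2 and Smad3, measured 7.28, 6.69 and 7.41 in the wild types. The knockouts lay close together at 7.96, 7.98, 7.80 and 7.91. The groups did not overlap, and WT-103 was the lowest array. The difference was 0.78 ± 0.17 (SE), or 1.72-fold, with a limma adjusted p of 0.0436. This call was lost when any 1 array was left out, at limma adjusted p from 0.0508 (WT-104) to 0.113 (KO-90). Without WT-27, WT-103, KO-03, KO-91 and KO-94 it was 0.0891, 0.0991, 0.0516, 0.0956 and 0.0825.

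The promoters of the 3 genes that rose are shown with that of hepcidin, Hamp, a target of BMP signalling in hepatocytes whose values follow below, because Smad proteins bind short DNA motifs. The sequences are RefSeq's for GRCm38.p6, the 250 bases before the annotated start, 5′ to 3′ on the gene's own strand. Capitals mark every match, on either strand, to the SMAD box CAGAC, read as GTCTG on the opposite strand, or to the GC-rich Smad1 and Smad5 element GGCGCC. Tgif1 has 5 annotated starts, and the window of the most upstream one is printed.
Gdf10, chr14:33923337-33923586, plus strand: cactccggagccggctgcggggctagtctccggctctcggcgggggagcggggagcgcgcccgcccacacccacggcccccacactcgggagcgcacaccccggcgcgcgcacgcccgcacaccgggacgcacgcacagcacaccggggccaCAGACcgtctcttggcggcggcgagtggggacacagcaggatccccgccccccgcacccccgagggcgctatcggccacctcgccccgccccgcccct
Tgfbi, chr13:56609336-56609585, plus strand: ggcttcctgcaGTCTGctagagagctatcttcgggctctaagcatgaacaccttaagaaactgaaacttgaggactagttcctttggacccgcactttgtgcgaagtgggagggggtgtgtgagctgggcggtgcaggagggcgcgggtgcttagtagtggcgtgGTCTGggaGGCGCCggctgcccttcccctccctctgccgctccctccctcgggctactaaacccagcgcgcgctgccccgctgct
Tgif1, chr17:70853533-70853782, minus strand: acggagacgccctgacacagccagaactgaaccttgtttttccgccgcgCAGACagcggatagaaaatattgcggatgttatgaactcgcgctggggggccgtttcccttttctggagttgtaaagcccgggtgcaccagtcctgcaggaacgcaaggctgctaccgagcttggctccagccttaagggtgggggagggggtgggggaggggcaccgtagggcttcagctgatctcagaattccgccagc
Hamp, chr7:30944030-30944279, minus strand: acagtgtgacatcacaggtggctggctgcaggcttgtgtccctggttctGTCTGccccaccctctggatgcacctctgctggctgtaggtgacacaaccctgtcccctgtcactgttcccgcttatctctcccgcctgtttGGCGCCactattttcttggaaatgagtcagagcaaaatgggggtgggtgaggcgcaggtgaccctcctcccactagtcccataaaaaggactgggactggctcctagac
The Gdf10 window holds 1 CAGAC match, whose first base lies 98 bases before the start. In the Tgfbi window a CAGAC match and a GGCGCC match lie beside each other, 85 and 77 bases before the start. The Hamp window has its GGCGCC match at 109 bases. Of the 44 measured genes, 32 had a window in the table, and 16 of these 32 held CAGAC and 9 held GGCGCC in at least 1 window. Among all 27025 genes with a window the shares were 45.8% and 10.8%. The palindrome GTCTAGAC, whose ends overlap a SMAD box by 4 letters, was in 0 of the 32 and in 0.200% of all genes. A match describes the letters only.

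Among the TGF-beta ligands 0 of 3 passed. Tgfb1, the main ligand of liver fibrosis, measured 5.97, 6.13 and 6.77 in the wild types and 6.35, 7.06, 6.69 and 7.30 in the knockouts. WT-104 lay above KO-03 and KO-91, and the difference of 0.56 ± 0.26 (SE) did not pass (limma adjusted p = 0.325, 95% confidence interval -0.02 to 1.14). Tgfb3 was not above background in any wild type (4.56, 4.32 and 4.71) and exceeded the floor in KO-90, KO-91 and KO-94 at 5.58, 5.13 and 5.41, while KO-03 was at 4.66. With the wild types raised to the floor, its knockout mean was 0.29 higher. KO-03 was under the floor too, so 0.29 is not a lower bound. Tgfb3 did not pass (limma adjusted p = 0.149). With 1 array left out, its limma adjusted p ran from 0.0197 (without KO-03) to 0.436 (without WT-103). Tgfb2 never exceeded the floor, at 3.46 to 3.70 in wild type and 3.67 to 4.75 in knockout (limma adjusted p = 0.153). Its limma adjusted p with 1 array left out ran from 0.0154 (without KO-03) to 0.379 (without WT-103).

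Besides Gdf10, 2 BMP-type ligands had groups that did not overlap without passing the test. Bmp5 measured 6.43, 6.36 and 6.57 in wild type and 6.88, 6.99, 7.11 and 6.82 in knockout. The lowest knockout, KO-94, lay above the highest wild type, WT-104, and the difference was 0.50 ± 0.12 (SE, limma adjusted p = 0.0536). Its other probe sets differed by 0.42 and 0.37 and did not pass either. Gdf2, the circulating ligand also known as BMP9, made in liver and acting on endothelial Acvrl1, measured 7.59, 7.78 and 7.79 in wild type and 8.08, 8.10, 8.15 and 8.51 in knockout. KO-94 was the highest array, and the difference was 0.49 ± 0.14 (SE, limma adjusted p = 0.0982). Bmp2, an inducer of hepcidin from endothelial cells, had the same mean of 7.57 in both genotypes (SD 0.19, n = 3 and SD 0.18, n = 4). The confidence interval of its difference was -0.32 to 0.31. Bmp4 differed by -0.19 ± 0.13 (SE), and Bmp7 cleared the floor on only 2 arrays.

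Of the 4 activin subunits 0 passed. Inhbe and Inhbc are the subunits made chiefly by hepatocytes. Inhbe ranged over 8.63, 7.68 and 7.17 in the wild types, so that the wild types differed among themselves by more than the genotype means did. The knockouts were at 8.90, 8.47, 8.05 and 8.40, and the difference of 0.63 ± 0.32 (SE) did not pass (limma adjusted p = 0.379). Inhbc was 8.98 ± 0.26 (SD, n = 3) and 9.07 ± 0.23 (SD, n = 4). Inhba and Inhbb differed by 0.05 and -0.02, with confidence intervals of -0.30 to 0.41 and -0.30 to 0.26. A second probe set of Inhbb, above the floor in KO-94 alone, differed by 0.95 and did not pass (limma adjusted p = 0.156).

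None of the 11 receptor and co-receptor genes passed, and their median difference was 0.14. The type I BMP receptor Bmpr1a, which hepatocytes need to make hepcidin, came nearest. It measured 8.14, 7.97 and 8.19 in wild type and 8.83, 8.81, 8.86 and 8.33 in knockout. All knockouts lay above all wild types, with KO-94 apart from the other 3, and the difference was 0.61 ± 0.15 (SE, limma adjusted p = 0.0678). With 1 array left out, the limma adjusted p ran from 0.0154 (without KO-94) to 0.254. The 5 other Bmpr1a probe sets all differed upward, by 0.20 to 0.40, and 0 of them passed. Those at 0.20 and 0.28 were not above background on any array.

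The TGF-beta type II receptor Tgfbr2 measured 7.55, 8.77 and 7.79 in wild type and 8.42, 8.82, 8.97 and 9.40 in the knockouts. WT-103 lay within the knockout range, and the difference was 0.87 ± 0.31 (SE, limma adjusted p = 0.193). A second Tgfbr2 probe set, also above background throughout, differed by 0.23, and the mean of all its probe sets by 0.35. The type I receptor Tgfbr1 differed by 0.30 ± 0.20 (SE). Its other 2 probe sets, each above the floor on only some arrays, differed by 0.63 and 0.58 with groups that did not overlap, and neither passed (limma adjusted p = 0.282 and 0.142). The co-receptor betaglycan, Tgfbr3, differed by 0.14 ± 0.11 (SE). The activin receptor Acvr2b was the one member with all knockouts below all wild types, at 5.28, 5.22, 4.88 and 5.36 against 5.45, 5.51 and 5.48. KO-90 and KO-91 were not above background, and the difference of -0.30 ± 0.13 (SE) did not pass (limma adjusted p = 0.314). Bmpr2, Acvr1, Acvr1b and Acvr2a differed by -0.05, -0.19, 0.17 and -0.22. Bmpr1b and Acvrl1 were not above background on any array.

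Of the 6 Smad transducers 0 passed, and their differences lay between -0.20 and 0.27. At the probe sets used, their confidence intervals together ran from -0.46 to 0.52. Larger changes than these fall outside those intervals for the 5 that were above background. Smad4, the shared partner, was 9.11 ± 0.10 (SD, n = 3) and 9.18 ± 0.06 (SD, n = 4). Among the probe sets used, that of Smad5 alone had groups that did not overlap. Smad5 measured 7.27, 7.49 and 7.24 in wild type and 7.53, 7.59, 7.71 and 7.58 in knockout, a difference of 0.27 ± 0.11 (SE, limma adjusted p = 0.266). Its other 2 probe sets differed by 0.02 and 0.06. Smad1, Smad2 and Smad3 differed by -0.20, 0.05 and 0.21, and Smad9 was not above background. Another Smad3 probe set, above the floor on only 5 arrays, differed by 0.39 with groups that did not overlap. Its confidence interval was 0.11 to 0.67, and it did not pass (limma adjusted p = 0.169).

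**Figure D2:**
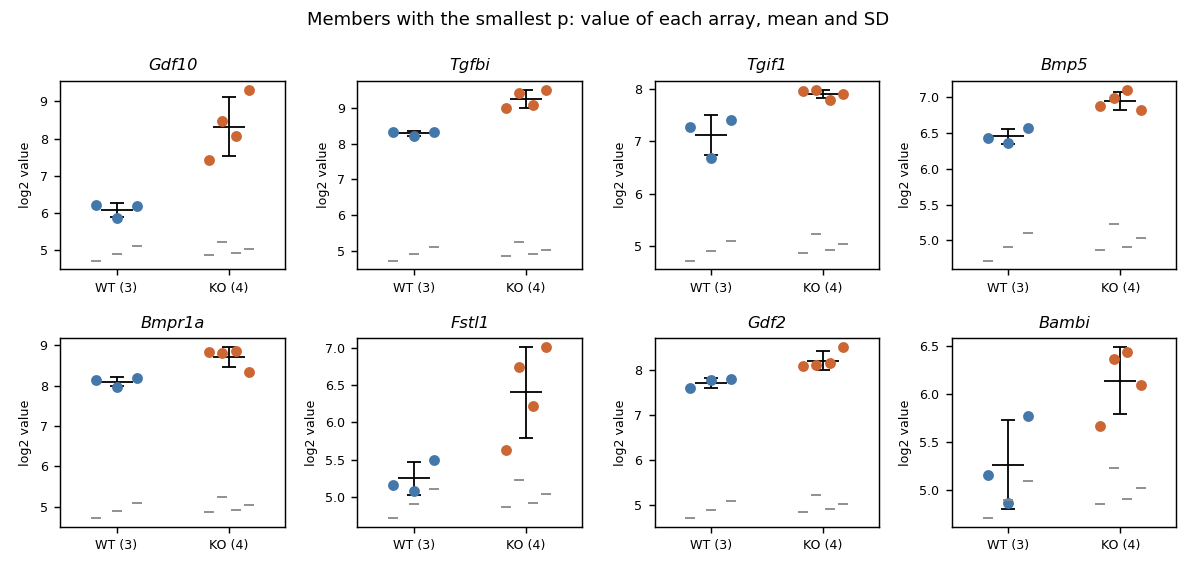
Log2 value of each array (blue, 3 wild types; orange, 4 knockouts) for the 8 members with the smallest p among those above the floor in knockout. Black bars are mean and SD, and short grey dashes the floor of each array. Groups are apart in all panels except Bambi, where WT-104 at 5.78 lies above KO-03 at 5.67.

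Of 10 inhibitors, Tgif1 passed and 9 did not. The secreted BMP-binding protein Fstl1 measured 5.16, 5.08 and 5.50 in wild type and 5.63, 6.75, 6.22 and 7.01 in knockout. The groups did not overlap, although KO-03 lay only just above WT-104. The difference was 1.16 ± 0.30 (SE), the second largest of the 44, and it did not pass (limma adjusted p = 0.0733). Leaving out 1 array gave limma adjusted p from 0.00741 (without KO-03) to 0.259. A second probe set gave a difference of at least 1.0. Bambi, a decoy receptor without a kinase, measured 5.16, 4.87 and 5.78 in wild type and 5.67, 6.37, 6.44 and 6.10 in knockout. WT-103 was not above background, WT-104 lay above KO-03, and the knockout mean was at least 0.86 higher (limma adjusted p = 0.102). For Bambi the limma adjusted p with 1 array left out ran from 0.0345 (without KO-03) to 0.344. The corepressor Ski differed by 0.56 ± 0.24 (SE) and its relative Skil by -0.03 ± 0.16 (SE).

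The feedback inhibitors Smad6 and Smad7, which TGF-beta and BMP signals themselves induce, did not pass. Smad7 measured 7.23, 6.76 and 6.89 in wild type and 6.64, 7.40, 6.96 and 7.37 in knockout, with overlapping groups and a difference of 0.13 ± 0.21 (SE, 95% confidence interval -0.33 to 0.60). Smad6 differed by 0.03 ± 0.16 (SE, interval -0.32 to 0.39). The ubiquitin ligases Smurf1 and Smurf2 differed by -0.04 and 0.11. Further Smurf2 probe sets, above background throughout, differed by 0.27 and 0.20 with groups that did not overlap. Neither passed (limma adjusted p = 0.328 and 0.414). Follistatin, Fst, which traps activin, varied most among knockouts, at 6.97, 6.65, 5.30 and 5.44. Its wild types lay between, at 5.91 to 6.42, and both of its probe sets had KO-03 highest and KO-91 and KO-94 lowest.

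The Id genes encode helix-loop-helix proteins without a DNA-binding region and are direct targets of BMP signals. None of Id1, Id2 and Id3 passed. Id1 measured 7.96, 6.76 and 6.50 in wild type and 7.36, 7.17, 6.71 and 7.40 in the knockouts. The wild types spanned the whole knockout range, and the difference was 0.08 ± 0.33 (SE, 95% confidence interval -0.66 to 0.83). Id3 differed by -0.27 ± 0.32 (SE), with WT-104 at 8.37 and WT-103 at 9.90. Id2 measured 11.21, 10.84 and 10.19 in wild type and 10.91, 10.29, 9.81 and 10.11 in knockout, a difference of -0.47 ± 0.29 (SE, limma adjusted p = 0.480). Its other probe sets differed by -0.96 and -0.91 with overlapping groups, and neither passed (limma adjusted p = 0.251 and 0.528). The one at -0.91 cleared the floor on only 5 arrays.

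**Figure D3:**
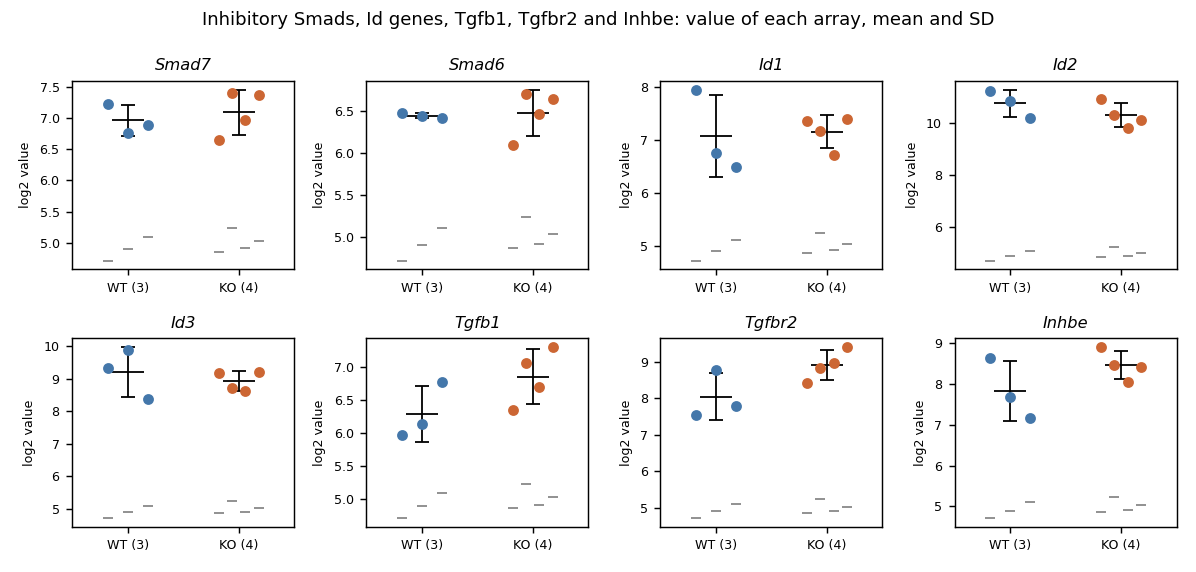
Log2 value of each array (blue, 3 wild types; orange, 4 knockouts) for the inhibitory Smads, the Id genes, Tgfb1, Tgfbr2 and Inhbe. Black bars are mean and SD, and grey dashes the floor of each array. The groups overlap in all 8 panels, and the wild-type Id1 values run from 6.50 to 7.96.

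Of 122 other genes of the pathway in 7 lists, 111 were measured. The lists were chosen with earlier results of these data known. At a limma adjusted p under 0.05, 14 of the 111 rose and 0 fell, where 2.58% and 0.951% of all genes did. The median difference was 0.18. At an unadjusted limma p under 0.05, 28 of the 111 were higher and 3 lower, where 10.2% and 6.23% of all genes were. Whether these shares differ from those of all genes was not tested. In the latency and activation list 4 of 15 rose and 11 did not pass (median 0.31). They were Emilin1, which restrains processing of the TGF-beta precursor, at 1.40 ± 0.23 (SE), the gelatinase Mmp2 at 1.28 ± 0.26 (SE), the latent TGF-beta binding protein Ltbp3 at 0.75 ± 0.15 (SE), and Itgb8. A second Emilin1 probe set differed by 0.69 and did not pass (limma adjusted p = 0.132). Itgb8, a subunit of an integrin that activates latent TGF-beta, passed with every array under the floor, at 2.62 to 2.95 in wild type and 3.74 to 4.80 in knockout. Of 16 extracellular antagonists 3 rose and 13 did not pass (median 0.07): the proteoglycans Bgn at 1.06 ± 0.17 (SE) and Dcn at 0.90 ± 0.14 (SE), and the serine protease Htra1 at 0.97 ± 0.14 (SE). A second Htra1 probe set, above background throughout, differed by 0.29 with overlapping groups (limma adjusted p = 0.414). Of 25 intracellular regulators 1 rose and 24 did not pass (median 0.02). It was Pmepa1, a TGF-beta-induced protein that keeps Smad2 and Smad3 from the receptor, which measured 4.86, 4.42 and 4.58 in wild type and 5.40, 5.68, 5.59 and 5.83 in knockout. Only 1 wild-type array cleared the floor, and the knockout mean was at least 1.59-fold higher (limma adjusted p = 0.00858).

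Of 21 textbook TGF-beta responsive genes 4 rose and 17 did not pass (median 0.29). These were the matricellular gene Ccn2 at 2.06 ± 0.27 (SE), and the collagens Col1a1, by at least 2.09, Col3a1 at 1.82 ± 0.32 (SE) and Col1a2 at 1.29 ± 0.21 (SE). Among the 17 that did not pass, differences ran from -0.30 for Zeb1 to 1.04 for Mmp14 (limma adjusted p = 0.196 and 0.0769), and the groups did not overlap for either. Of 7 BMP responsive genes Hamp rose and 6 did not pass (median 0.27). Hamp measured 12.50, 12.55 and 12.61 in wild type and 12.88, 13.16, 13.49 and 13.36 in knockout. The groups did not overlap, the difference was 0.67 ± 0.15 (SE, limma adjusted p = 0.0480), and whether its probe set also binds transcripts of the near-identical copy Hamp2 was not tested. Another probe set differed by 0.50 and did not pass (limma adjusted p = 0.0856). Hamp also missed the threshold with median centring, at a limma adjusted p of 0.0522.

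Hemojuvelin, Hjv, the hepatocyte co-receptor through which BMPs raise Hamp, was the 1 of 13 other receptors and co-receptors that rose (12 did not pass, median 0.18). It measured 9.43, 9.56 and 9.53 in wild type and 10.38, 10.57, 10.68 and 10.40 in knockout, a 2.00-fold difference with a limma adjusted p of 0.00297. The groups were far apart compared with their SDs of 0.06 (n = 3) and 0.15 (n = 4), its second probe set differed by 0.98, and the call held with any 1 array left out. Of the 13, 3 were higher and 2 lower at an unadjusted limma p under 0.05. The lower 2 were Tfr2 at -0.25, with all knockouts below all wild types, and Hfe at -0.36. None of 14 other ligands passed (median 0.08). Those with the smallest p, Nodal at 0.33 and Lefty1 at 0.28, were not above background on any array.

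The count of 14 fell to 7 without WT-27 and to 3 without WT-103. Over all genes, the 470 higher in knockout fell to 216 and 132 in the same fits. Without WT-103 the limma adjusted p lay above 0.05 for 11 of the 14 genes. Hjv, Ccn2 and Col1a1 passed with any 1 array left out, at limma adjusted p up to 0.0213, 0.0236 and 0.0335. Hamp passed only where KO-03 was the array left out, and its limma adjusted p reached 0.175. Ltbp3 also failed without WT-104, KO-91 or KO-94 (up to 0.159). Mmp2 also failed without WT-27, KO-90, KO-91 or KO-94 (up to 0.0956), and Emilin1 and Itgb8 without any 1 wild type (up to 0.0753 and 0.0669). Dcn, Bgn and Col3a1 also failed without WT-27, and Col3a1 without KO-90, with limma adjusted p up to 0.0732, 0.0806 and 0.0947. For Htra1, Pmepa1 and Col1a2, WT-103 was the one array whose loss ended the call (0.0624, 0.0531 and 0.0781).

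**Figure D4:**
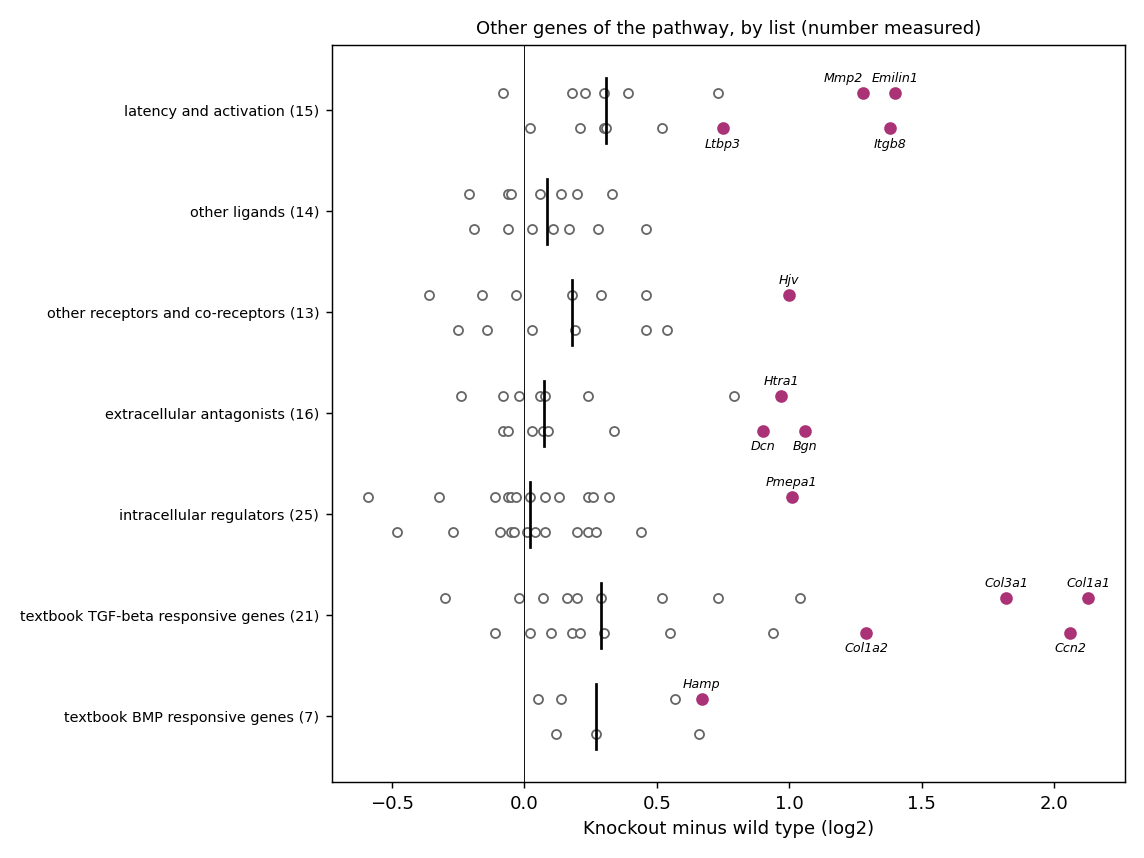
Knockout minus wild type (log2, horizontal axis) of the 111 measured other pathway genes, 1 row per list, with the number measured in brackets. Filled and named points passed a limma adjusted p of 0.05, open points did not, and black ticks are list medians, from 0.02 for intracellular regulators to 0.31 for latency and activation.

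Markers of other liver cells differed between the genotypes beside these genes. Of 10 hepatic stellate cell markers, 3 rose (Pdgfrb at 1.03 ± 0.15, Hand2 at 1.09 ± 0.23 and Dcn at 0.90 ± 0.14, SE) and 0 fell. All 10 were above the floor on every array, and the log2 of their summed level was 12.29 to 12.34 in wild type and 12.73 to 13.01 in knockout. Without Dcn, which also stands among the antagonists, the sum was 11.68 to 11.74 and 12.0 to 12.15. Lrat, Reln, Colec11 and Lhx2 of that list differed by -0.13, 0.34, 0.11 and 0.15 and did not pass. Rgs5, Des and Ecm1 differed by 0.60, 0.36 and 0.30, at unadjusted limma p of 0.0405, 0.0358 and 0.0286, and did not pass either. Groups did not overlap for Ecm1. A second Pdgfrb probe set differed by 0.59 and did not pass (limma adjusted p = 0.18). Of 7 bile duct markers 4 rose (Cd24a by at least 2.73, Epcam by at least 2.06, Tspan8 by at least 1.70 and Krt19 by at least 1.10), and Krt7 and Cftr were not above background. A second Epcam probe set, above background throughout, differed by -0.17 with overlapping groups (limma adjusted p = 0.689). The list's summed level was 8.50 to 9.70 in knockout, and in all 3 wild types, at 7.30 to 7.50, it was under the sum that 7 markers at the floor would give, 7.52 to 7.91. Of 7 neutrophil markers S100a8, by at least 3.25, and S100a9, by 3.16 ± 0.54 (SE), rose, while Camp, Mmp8, Cxcr2 and Ltf were not above background on any array. That list's summed level was 9.03 to 11.15 in knockout and, at 7.18 to 7.71, again under the floor sum in all 3 wild types. None of 10 sinusoidal endothelial or 10 macrophage markers passed, with summed levels of 11.27 to 11.44 and 11.27 to 11.50 for the first and 12.40 to 13.02 and 12.77 to 13.24 for the second. All 10 macrophage markers differed upward, 3 of them at an unadjusted limma p under 0.05, and 2 had groups that did not overlap. At that unadjusted p, 1 endothelial marker was higher and 1 lower. Over all genes, 2.58% rose and 0.951% fell at the adjusted threshold, and 10.2% were higher and 6.23% lower at the unadjusted p. All knockouts lay above all wild types for 9.15% of all genes. Whether the shares of these marker lists differ from those of all genes was not tested. The part of these cell types in the differences of Gdf10, Tgfbi, Tgif1 and the matrix genes was not tested.

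**Figure D5:**
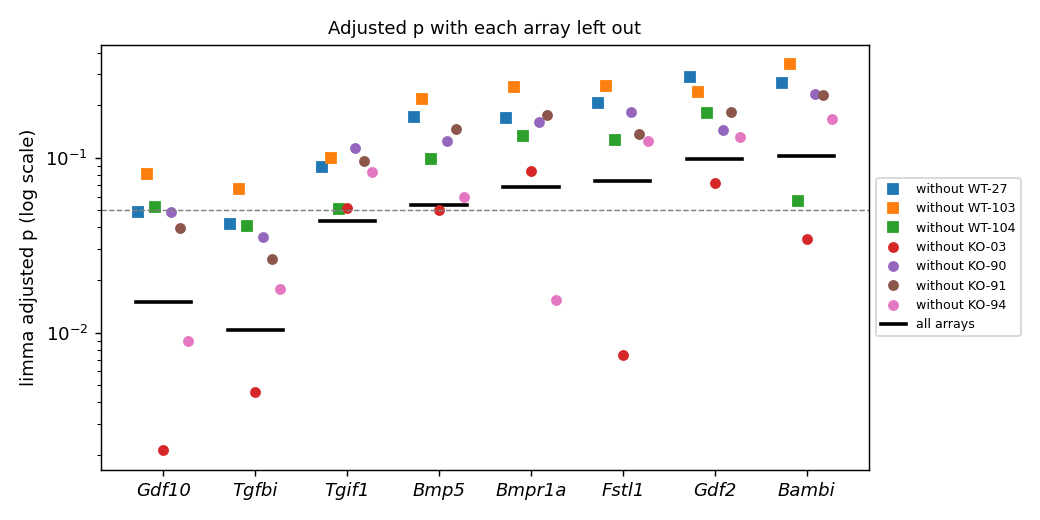
Limma adjusted p (log scale) of 8 members with all arrays (black bar) and with each array left out (squares, wild types; circles, knockouts). The dashed line is the threshold of 0.05. Tgfbi crosses it only without WT-103, Gdf10 without WT-103 or WT-104, and Tgif1 with each array left out, while Fstl1 and Bambi fall below it without KO-03 and Bmpr1a without KO-94.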

How the data were processed

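The authors deposited log2 values, computed per array and probe set by RMA in software from Partek, as the submitters' processing notes and the series design state. RMA quantile normalizes probe intensities before it summarises them, so the summarised values still differ slightly in distribution between arrays. No versions or probe set definitions are named there. There are no counts behind array values, so precision rests on how many arrays there are.

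Platform annotation gave 1 symbol for 34945 of 45101 probe sets. Each of 18193 genes was read from the probe set brightest on average across the 7 arrays. Genotypes were compared by limma 3.58.1 (R 4.3.3) with lmFit and eBayes, a two-sided test without covariates on 5 residual and 3.99 prior degrees of freedom, and Benjamini-Hochberg adjustment over all genes. A p for a further probe set was adjusted over all probe sets. "At least" marks a difference after arrays of the dimmer genotype were raised to the floor. The fit was tested on simulated data. The members, the floor and the lists of other pathway genes and markers were chosen with earlier results of these data known. Named are all measured members, the called genes of the other lists (at most 4 per list, or the 2 smallest p where none passed), called markers and Alb. Zeb1, Mmp14, Tfr2, Hfe and the markers that did not pass were singled out after their values were seen. Alternatives were other priors, array weights, 2 normalizations, a filter on dim genes, other choices of probe set, a stricter threshold and leaving out each array.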

Additional observations from a re-analysis of the deposited data

Results flagged for a closer look

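Among the 4 knockouts, 1 array stood apart from the other 3 by Dixon's criterion in 3 of 58 genes examined, where chance gives about 1 in 20, and each time it was KO-94. Gdf2 was 8.51 in KO-94 and 8.08 to 8.15 in the other knockouts. Bmpr1a was 8.33 in KO-94 and 8.81 to 8.86 in the others. Acvr2a was 7.08 in KO-94 and 7.92 to 8.0 in the others.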

How the results depend on the processing

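No paired analysis was possible because animal numbers do not recur between the genotypes. The count of members higher in knockout, 3, stayed within 1.5 times under 8 of 10 alternatives that kept all arrays, became 10 with array weights and 0 at an adjusted p under 0.01, and ranged from 0 to 6 with 1 array left out. Over all genes, the count higher in knockout ranged from 132 to 892 with 1 array left out. With array weights, Tgfb2, Tgfb3, Bmp5, Gdf2, Bmpr1a, Fstl1 and Bambi passed as well, and 909 of all genes were higher. Tgif1 lost its call with median centring (limma adjusted p = 0.0536) and when adjusted over all probe sets (0.0566), and Bmp5 passed among genes at or above the median level (0.0427). With all arrays kept, Hamp also failed with median centring (0.0522), without probe sets that can bind several transcripts (0.069, a difference of 0.50) and with the probe set highest in wild type (0.0685). Col1a2 and Col3a1 failed with the mean of all probe sets (limma adjusted p = 0.0538 and 0.0508). The count of other pathway genes, 14, became 5 at an adjusted p under 0.01 and ranged from 3 to 19 with 1 array left out. Counts of lower members and lower other pathway genes were 0 in each of these fits (limma). The signs of Gdf10, Tgfbi and Tgif1 held in every alternative, other probe sets of Tgfbi included.

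Differences that never passed also changed sign. With array weights, the difference became 0.09 for Bmp2, 0.05 for Bmpr2, 0.06 for Inhbb, 0.01 for Skil, -0.12 for Id1 and 0.04 for Smurf1. With the mean of all probe sets, the difference became -0.0049 for Tgfbr3, -0.03 for Smad2, 0.04 for Bmp7, 0.06 for Bmpr2, -0.05 for Inhba, 0.47 for Inhbb and 0.07 for Skil. With median centring, the difference became 0.01 for Bmp2. With renewed quantile normalization, the difference became -0.01 for Smad2, -0.05 for Smad6 and -0.01 for Inhba. On a further probe set it was -0.20 for Tgfb1, -0.04 for Tgfbr2, -0.15 for Tgfbr3, 0.09 for Smad1, -0.10 for Smad2, -0.04 for Smad4, -0.06 for Smad7, 0.13 for Bmp7, 0.06 for Bmp7, -0.09 for Bmpr1b, 0.26 for Bmpr2, 0.16 for Acvr1, -0.15 for Inhba, 0.95 for Inhbb and 0.17 for Skil. With 1 array left out it ranged from -0.04 to 0.19 for Smad2, -0.05 to 0.16 for Smad6, -0.07 to 0.16 for Smad9, -0.11 to 0.07 for Bmp2, -0.21 to 0.08 for Bmp7, -0.14 to 0.07 for Bmpr2, -0.05 to 0.33 for Acvr1b, -0.08 to 0.27 for Acvrl1, -0.08 to 0.13 for Inhba, -0.08 to 0.05 for Inhbb, -0.04 to 0.22 for Inhbc, -0.44 to 0.12 for Fst, -0.13 to 0.10 for Skil, -0.21 to 0.53 for Id1, -0.69 to 0.07 for Id3 and -0.11 to 0.02 for Smurf1. The further probe sets listed for Tgfb1, Tgfbr2, Smad7, Bmp7, Bmpr1b and Inhba were not above background on any array. Those listed for Bmpr2, Inhbb and Skil cleared the floor on only some arrays. The cause of the sign changes was not tested.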

Other observations

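Among the members, KO-03 was the knockout nearest the wild-type mean in 21 of 44 genes, and KO-90, KO-91 and KO-94 in 7, 7 and 9. This count was not made over all genes. On the first principal component of all genes, KO-03, at -1.3, was also the knockout nearest the wild types. The measured members had 53 further probe sets, of which 18 were not above background on any array. Of the remaining 35, 27 had the sign of the chosen probe set and 8 had the opposite sign.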
